A study of Homo sapiens with 16 samples.

Results

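The siRNA control libraries of a G9a knockdown experiment were compared with the inhibitor control libraries of a G9a drug experiment, both made from HCT116, a widely used line of human colon cancer cells. The libraries were chosen by their source label alone, with no measured value, which gave 8 of 16 sequencing samples. These are 4 of 8 libraries, each sequenced in 2 runs that were averaged. The siRNA control group holds 2 libraries and the inhibitor control group holds 2 libraries, so n = 2 in each mean ± SD. Neither label gives a genotype or an agent for these cells, and none of the sources used says how the control cells were treated. Transfection, carrier, culture and handling therefore cannot be told apart in what follows. The other 4 libraries, used here only as a scale, came from cells given 10 nM of a siRNA against G9a by lipid transfection or 0.5 µM of the inhibitor BIX 01294, each for 72 h. The labels do not tie the libraries of a group to separate cultures, so each p-value reflects differences among libraries that may be technical.

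G9a, encoded by EHMT2, and its partner GLP, encoded by EHMT1, methylate histone H3 at lysine 9, and HP1 proteins bind that mark in silent chromatin. A control group is meant to share the handling of the treated group it stands beside. Setting the control groups against each other shows how far the controls of the 2 arms of the study differed.

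Total RNA was sequenced on stranded libraries, and levels are given as FPKM (fragments per unit of transcript length and of sequencing depth) after scaling libraries by median-of-ratios factors. The tables give no read totals. The deposited intervals imply between 2018000 and 6929000 fragments per run of these libraries, with siRNA control replicate 2 and inhibitor control replicate 2 the shallower of their groups. Across the 12846 genes tested, log2 levels correlated at r = 0.992 between the siRNA controls and at 0.993 between the inhibitor controls, but at only 0.967 to 0.970 between the groups. The treated libraries correlated with the siRNA controls at 0.985 to 0.994 and with the inhibitor controls at 0.957 to 0.974. The inhibitor controls thus stood apart from the other 6 libraries, including the inhibitor-treated cells they were made to match. RNA28S5, the 28S ribosomal RNA that total RNA kits remove, was at 7362 and 10790 FPKM in the siRNA controls, against 210 and 40.8 in the inhibitor controls. Its part in the differences below was not tested.

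**Figure D1:**
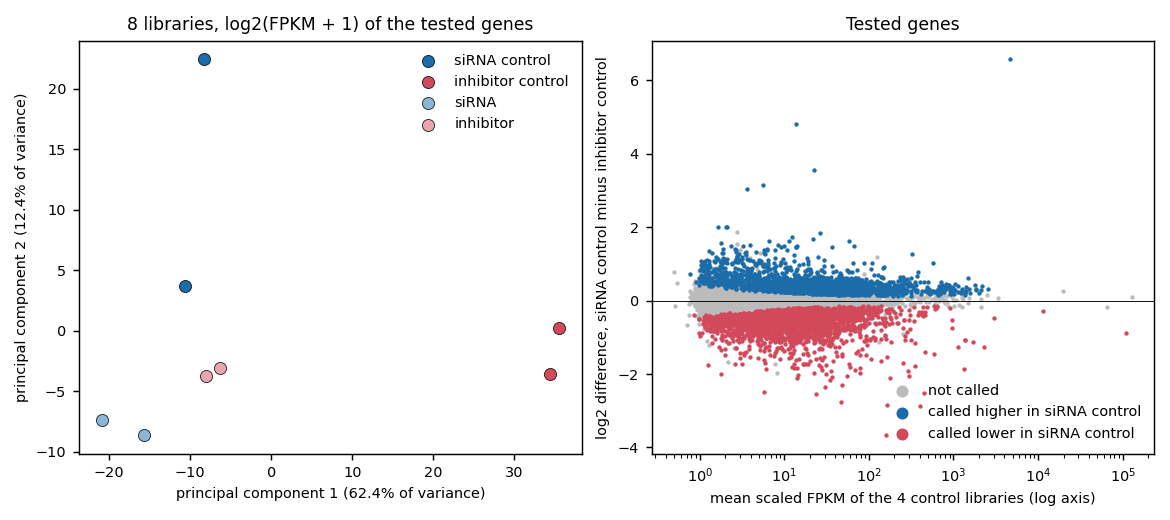
Left, the 8 libraries on the first and second principal components of log2(FPKM + 1), coloured by group. Right, the log2 difference of siRNA control minus inhibitor control for each tested gene against its mean level in the 4 control libraries (log axis), with called genes coloured. The inhibitor controls lie at 34.4 and 35.5 on the first component, and the other 6 libraries lie below 0.

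Markers of colon epithelium were used to check the label of the cells. Of 18 listed, 13 were measured above the filter, among them KRT8, KRT18 and KRT19, keratins of simple epithelia, and EPCAM, an epithelial adhesion molecule. CDX1, an intestinal transcription factor, was at 0 in all 4 control libraries. Summed over the list, levels were 687 and 687 FPKM in the siRNA controls, against 819 and 829 in the inhibitor controls. KRT8 was at 167 and 171 FPKM in the siRNA controls, against 257 and 255 in the inhibitor controls (log2 difference -0.60 ± 0.04 SE, adjusted p = 3.77e-05), whereas KRT19 differed by 0.14, a call that was lost when any 1 of the 4 libraries was left out (adjusted p = 0.081 to 0.193). Whether such differences reflect fewer cells of a kind or less RNA per cell cannot be told apart in bulk samples. Fibroblast markers were mostly missing: 14 of 18 were under 1 FPKM in all 4 control libraries and LUM, FAP, TWIST1, TWIST2 and PRRX1 were at 0. The 3 tested were all called. Without scaling, with FPKM as deposited, only 1 of them, a lower one, was called, and the call of VIM was lost. VIM was higher, at 15.7 and 16.4 FPKM in the siRNA controls, against 12.7 and 11.7 in the inhibitor controls. S100A4 was lower, at 47.2 and 49.2, against 56.3 and 52.8, as was COL1A1, at 1.1 and 0.729, against 2.07 and 1.79. Of 11 leukocyte and endothelial markers in the files, 10 were under 1 FPKM, and PTPRC, CD3E and HBB were at 0. CD68 was at 11.6 and 10.2 FPKM in the siRNA controls, against 11.1 and 8.54 in the inhibitor controls, and was not called.

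The targeted gene was examined first. EHMT2 (chromosome 6, 31847536 to 31865464 in hg19) was at 15.9 and 17.8 FPKM in the siRNA controls, against 24.7 and 21.0 in the inhibitor controls, so the groups did not overlap. The log2 difference of siRNA control minus inhibitor control was -0.42 ± 0.09 (SE, limma adjusted p = 0.00726). The call rested on inhibitor control replicate 1, since without it the difference was -0.31 with an adjusted p of 0.0521. EHMT1 (chromosome 9, 140513444 to 140764468) differed further, at 12.2 and 15.8 FPKM in the siRNA controls, against 25.5 and 24.02 in the inhibitor controls. Its log2 difference was -0.79 ± 0.12 (adjusted p = 0.0011), and the 4 treated libraries lay at 9.08 to 12.4 FPKM, all below both inhibitor controls.

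Of 12846 genes tested, 4916 were called different at an adjusted p below 0.05, which is 38.3% of all genes. Of these, 2472 (19.2% of genes tested) were higher and 2444 (19%) were lower in the siRNA controls. These shares are the background for every count of a gene list given here. All 4916 called genes had non-overlapping control libraries, as did 8946 genes in all, or 69.6%. Most differences were small: the median size of a called difference was 0.37 on the log2 scale for genes higher in the siRNA controls and 0.52 for genes lower in them. Differences of at least 1 on the log2 scale numbered 110 higher and 249 lower. The near-even split depended on the scaling of the libraries. With FPKM as deposited, the median difference of all genes moved to -0.11, against 0.01 with scaling, and 648 genes were called higher against 2950 lower, so that 18% of called genes were higher instead of 50.3%. Among genes named below, that scaling ended the calls of KDM1A, NCAPH2, SLBP, MT-RNR1, CYC1, EIF4E, NPM1, HNRNPC, SRSF2, CLK1, SNRPG, CCT2, CCT5, TCP1, ISG15, IFIT5, INSIG1, PGK1, HIF1A, CDK1, TMSB10, MYL6 and PSMB1. It turned the direction of no called gene named below, but the uncalled differences of SETDB1, SUV39H1, CTNNB1 and EIF1AD went below 0.

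The treated libraries showed to which control group the called levels belonged more closely. For 3638 of the 4916 called genes (74%), all 4 treated libraries lay nearer the siRNA control mean, and for 92 genes all 4 lay nearer the inhibitor control mean. Among the 249 larger decreases the count was 231 (92.8%), and among the 110 larger increases it was 55 (50%). No test was made of these counts.

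The largest decreases among genes averaging at least 10 FPKM included RNAs of the ribosome, the mitochondrion and the RNA-binding machinery. RPS16, from the small subunit of the ribosome (chromosome 19), was at 17.7 and 20.2 FPKM in the siRNA controls, against 463 and 135 in the inhibitor controls. The inhibitor controls were far apart for this gene, and its log2 difference of -3.66 ± 0.46 (adjusted p = 0.000467) was -2.78 without inhibitor control replicate 1 and -4.55 without replicate 2. RPL28, of the large subunit, was at 74.6 and 77.5 FPKM in the siRNA controls, against 378 and 421 in the inhibitor controls, with a log2 difference of -2.38 ± 0.06 (adjusted p = 1.82e-07). The 4 treated libraries lay at 63.2 to 87.9 FPKM, on the side of the siRNA controls. HNRNPA2B1, which binds nascent RNA and carries messages to their sites of use, was at 42.7 and 37.1 FPKM in the siRNA controls, against 320 and 263 in the inhibitor controls (log2 -2.84 ± 0.10, adjusted p = 2.21e-06). CBX3, a chromatin gene that overlaps it in the annotation and whose reads cannot be told apart where the loci share bases, was at 217 and 193 FPKM in the siRNA controls, against 177 and 192 in the inhibitor controls, and was not called (adjusted p = 0.108). H1F0, the linker histone of slowly dividing cells, was at 8.45 and 10.1 FPKM in the siRNA controls, against 53.7 and 49.5 in the inhibitor controls (log2 -2.36 ± 0.09, adjusted p = 2.56e-06). NCL, the main protein of the nucleolus, was at 111 and 119 FPKM in the siRNA controls, against 478 and 483 in the inhibitor controls. FKBP5, a co-chaperone of steroid receptors, stood at 4.46 and 4.99 FPKM in the siRNA controls, against 27.1 and 20.7 in the inhibitor controls. For each of these genes except CBX3 the control groups were apart and the treated libraries lay with the siRNA controls.

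**Figure D2:**
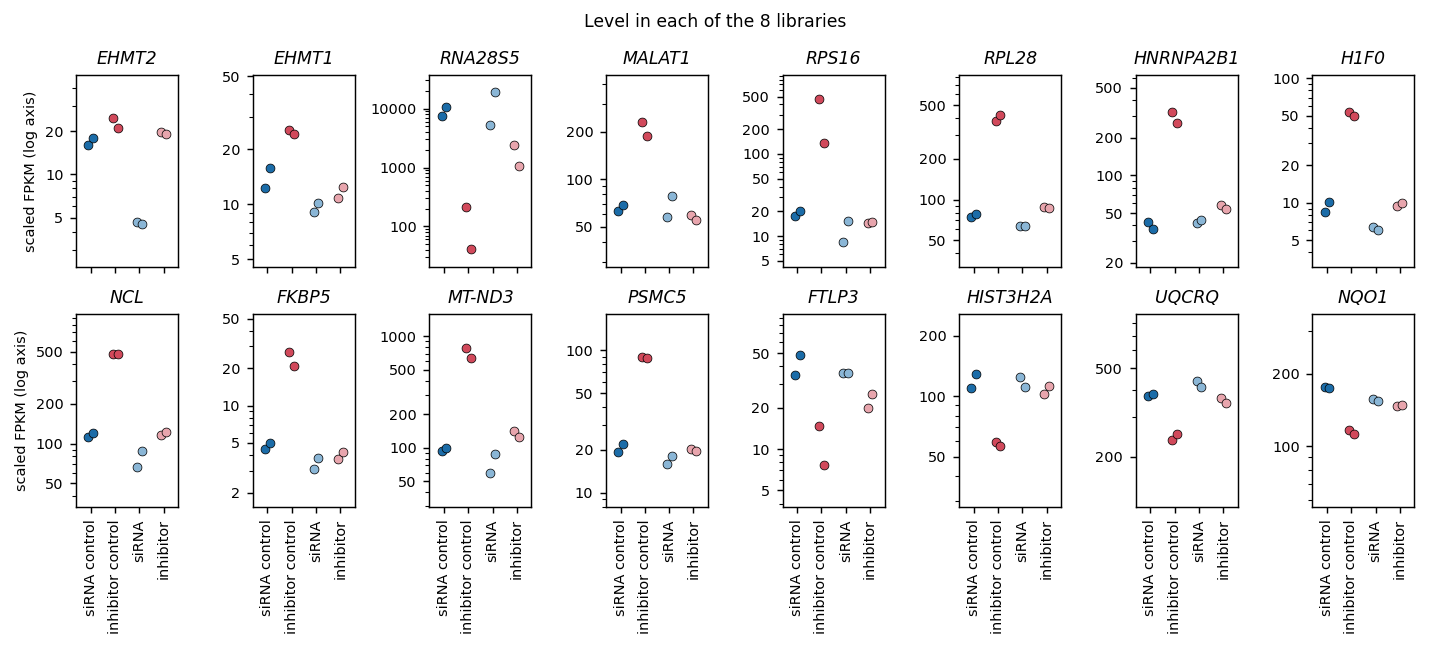
Level of 16 named genes in each of the 8 libraries, in scaled FPKM on log axes that differ between panels, with 2 points per group. For RPL28 the siRNA controls lie at 74.6 and 77.5 and the inhibitor controls at 378 and 421, with the treated libraries near the siRNA controls.

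The rest of the 15 largest decreases were MT-ND3, MT-ATP6 and MT-ND1, the nuclear copy MTATP6P1 of a mitochondrial gene, SCARNA9, HNRNPH3, U2AF1, BANF1 and PSMC5. U2AF1, which recognises the 3′ end of introns, was at 12.2 and 11.7 FPKM in the siRNA controls, against 62.9 and 52.2 in the inhibitor controls. BANF1, which tethers chromatin to the nuclear envelope, was at 12.5 and 14.9 FPKM in the siRNA controls, against 62.7 and 58.6 in the inhibitor controls. PSMC5, an ATPase of the proteasome cap, was at 19.4 and 22.2 FPKM in the siRNA controls, against 89.9 and 87.8 in the inhibitor controls. EIF1AD, which overlaps BANF1, did not differ beyond its error (log2 0.01, adjusted p = 0.894), and FTSJ3, which overlaps PSMC5, was lower by less (log2 -0.61, adjusted p = 0.000419). HNRNPH3 was at 5.19 and 6.16 FPKM in the siRNA controls, against 58.1 and 24.6 in the inhibitor controls, and its log2 difference of -2.55 was -1.95 without inhibitor control replicate 1. SCARNA9, a Cajal body RNA, was at 11.3 in both siRNA controls, against 89.0 and 77.9 FPKM in the inhibitor controls.

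The 15 largest increases were of another kind. RNA28S5 led them, with a log2 difference of 6.57 ± 0.77 (adjusted p = 0.000329) that was 7.73 without inhibitor control replicate 1 and 5.39 without replicate 2. The remaining members were mostly pseudogenes and near-identical gene copies, whose levels are uncertain wherever reads could be shared among copies. FTLP3, a processed copy of the ferritin light chain gene, was at 34.5 and 48.1 FPKM in the siRNA controls, against 14.8 and 7.61 in the inhibitor controls (log2 1.84 ± 0.25, adjusted p = 0.000668). RN7SKP48, a copy of the 7SK RNA, was at 70.0 and 109 FPKM in the siRNA controls, against 28.6 and 26.4 in the inhibitor controls. HIST2H4B, HIST2H2AA4 and H2BFS, all histone genes with close copies, differed by 1.63, 1.48 and 1.37. RPL9P8 and UBE2Q2P6 had nearly the same values in every library, and RPS24P8, RP11-587D21.1 and RP11-796G6.1 are pseudogenes too. RP11-3P17.5 was at 26.6 and 53.7 FPKM in the siRNA controls, against 10.02 in 1 inhibitor control and a listed value of about 0 in the other, and its call was lost without siRNA control replicate 2 (adjusted p = 0.067). RP11-603J24.9, which overlaps PA2G4 and ERBB3, was at 27.97 and 26.5 FPKM in the siRNA controls and listed at about 0 in both inhibitor controls, so no fold is given.

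Gene class separated the directions. Of 773 pseudogenes tested, 296 (38.3%) were called higher and 36 (4.7%) lower in the siRNA controls, with a median log2 difference of 0.32. Of 10918 protein-coding genes, 2013 (18.4%) were higher and 2305 lower, with a median of -0.02. Pseudogenes made up 66 of the 110 larger increases, and protein-coding genes made up 225 of the 249 larger decreases. Of 863 long noncoding or unclassified genes, 119 were higher and 52 lower, with a median of 0.07. Among protein-coding genes the difference also moved with base composition. In the quintile of genes with the lowest GC content of the longest transcript, 641 of 2184 were higher and 301 lower (median 0.12), and in the highest quintile 238 were higher and 520 lower (median -0.11). Spearman's rho across 10918 genes was -0.24 with GC content and -0.16 with transcript length. These are descriptions across genes of the same 4 libraries, and genes are not independent replicates. The shortest quintile of transcripts had 658 genes higher and 406 lower, and it also held 81 of the larger decreases. The quintile with the highest level had 1047 genes higher and 586 lower. The part of GC content, length and level in the list results below was not tested.

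**Figure D3:**
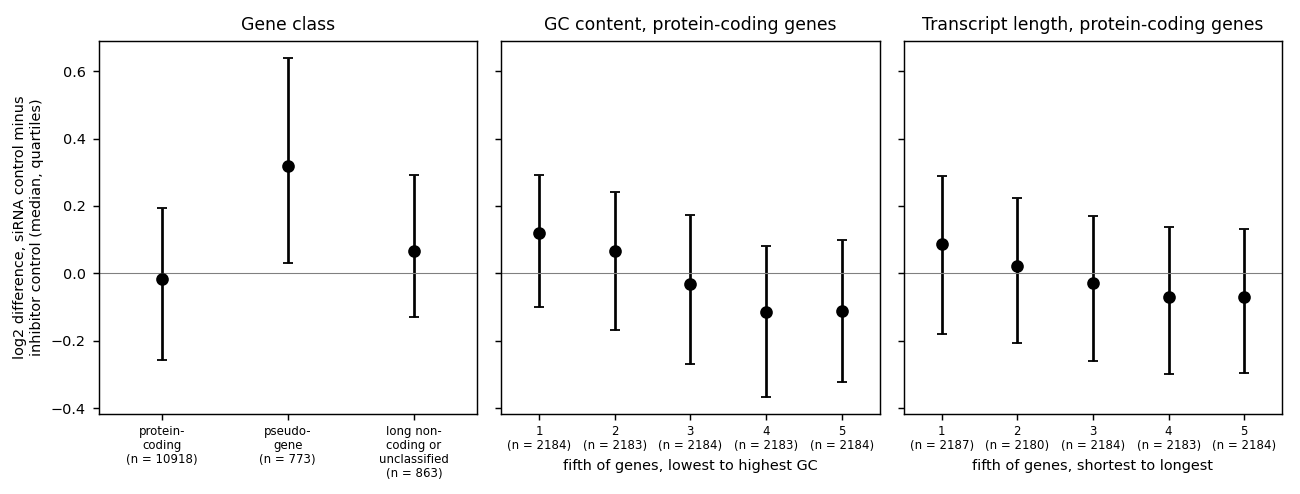
Median log2 difference of siRNA control minus inhibitor control (points) with quartiles (bars), by gene class and by quintiles of GC content and transcript length of protein-coding genes. The median is 0.32 for pseudogenes and -0.02 for protein-coding genes, and it runs through 0.12 in the lowest to -0.11 in the highest quintile of GC content.

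Core promoters are shown for 4 genes that were lower and for 2 histone genes that were higher in the siRNA controls, taken from RefSeq on GRCh38.p14. Each runs from 80 bases before to 20 bases after the annotated start, in the direction of transcription. RPS16 lies at chr19:39435930-39436029 on the minus strand and RPL28 at chr19:55385852-55385951 on the plus strand. HNRNPA2B1 lies at chr7:26200727-26200826 and NCL at chr2:231464465-231464564, both on the minus strand. HIST3H2A lies at chr1:228457854-228457953 and HIST1H2AD at chr6:26199274-26199373, both on the minus strand. Capitals mark matches on either strand to the CCAAT box (CCAAT), the TATA box (TATAAA) or the GC box (GGGCGG).
RPS16: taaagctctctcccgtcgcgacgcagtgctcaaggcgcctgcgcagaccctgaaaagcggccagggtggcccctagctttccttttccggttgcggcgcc
RPL28: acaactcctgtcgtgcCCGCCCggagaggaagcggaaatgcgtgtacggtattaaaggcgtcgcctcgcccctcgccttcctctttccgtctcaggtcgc
HNRNPA2B1: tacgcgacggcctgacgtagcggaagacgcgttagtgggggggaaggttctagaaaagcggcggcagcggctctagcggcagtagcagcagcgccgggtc
NCL: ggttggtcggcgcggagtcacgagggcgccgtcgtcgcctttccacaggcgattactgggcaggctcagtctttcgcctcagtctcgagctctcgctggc
HIST3H2A: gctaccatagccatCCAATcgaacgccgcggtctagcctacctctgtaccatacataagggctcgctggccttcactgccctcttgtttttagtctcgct
HIST1H2AD: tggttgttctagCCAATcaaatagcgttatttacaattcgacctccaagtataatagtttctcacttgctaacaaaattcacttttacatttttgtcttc
RPS16, HNRNPA2B1 and NCL held none of these motifs in the window, RPL28 held a GC box, and both histone promoters held a CCAAT box, a motif known to occur in many histone gene promoters. A window was counted once per motif. Among 8941 promoters matched to the 10918 protein-coding genes tested, 19.6% held CCAAT, 51.5% held GGGCGG and 2% held TATAAA. The shares were 20.7%, 45.9% and 2.4% for the 1663 matched genes called higher in the siRNA controls. For the 1882 called lower they were 19.6%, 54.4% and 2.3%. Median GC content of the window was 67% for genes called higher, 70% for genes called lower and 69% for all.

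Every mitochondrially encoded RNA tested was lower in the siRNA controls, whereas nuclear genes for the same respiratory complexes were mostly higher. The mitochondrial genome encodes core subunits of the respiratory chain and ribosomal RNAs, and the nucleus supplies the other subunits and all mitochondrial ribosomal proteins. Of 14 such genes listed, 12 were tested and all 12 were called lower (11 with FPKM as deposited), with a median log2 difference of -1.77 against 0.01 for all genes, and 10 of them by at least 1. MT-ND3, a subunit of complex I, was at 93.2 and 100 FPKM in the siRNA controls, against 791 and 642 in the inhibitor controls (log2 -2.87 ± 0.17, adjusted p = 1.14e-05). MT-CO2, of cytochrome oxidase, was at 544 and 601 FPKM in the siRNA controls, against 2319 and 1845 in the inhibitor controls (log2 -1.85 ± 0.13, adjusted p = 2.47e-05). MT-ND1 differed by -2.11, MT-CYB of complex III by -1.90 and MT-CO1 by -1.07. MT-ATP6, of the ATP synthase, differed by -2.51 in FPKM but by -1.27 in the fragments that its intervals imply. The smallest difference was that of MT-RNR1, the small ribosomal RNA, at 10450 and 10490 FPKM in the siRNA controls, against 13670 and 11700 in the inhibitor controls. Its call (log2 -0.27, adjusted p = 0.0285) was lost without inhibitor control replicate 1 (adjusted p = 0.168) and without either siRNA control (adjusted p = 0.088 and 0.0812). The treated libraries summed to 14970 to 16550 FPKM over these genes, with 14980 and 15180 in the siRNA controls and 24990 and 21190 in the inhibitor controls.

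Of 80 nuclear respiratory chain genes, 50 were called higher and 10 lower in the siRNA controls (62.5% and 12.5%, against 19.2% and 19% of all genes), with a median log2 difference of 0.27. UQCRQ, of complex III, was at 373 and 381 FPKM in the siRNA controls, against 238 and 253 in the inhibitor controls (log2 0.62 ± 0.05, adjusted p = 8.29e-05). ATP5F1, of the ATP synthase, was at 368 and 339 FPKM in the siRNA controls, against 244 and 254 in the inhibitor controls. CYC1 and NDUFV2 differed by 0.43 and 0.50. The lower members included NDUFA8, at 20.9 and 21.2 FPKM in the siRNA controls, against 47.7 and 44.2 in the inhibitor controls, and SDHC, a membrane anchor of complex II, at 4.74 and 4.99, against 22.7 and 16.7. Mitochondrial ribosomal proteins followed the nuclear subunits, with 48 of 76 higher and 6 lower and a median of 0.30. MRPL35 was at 56.8 and 55.0 FPKM in the siRNA controls, against 35.9 and 36.5 in the inhibitor controls. MRPL12 went the other way, at 10.1 and 13.5 FPKM in the siRNA controls, against 59.8 and 41.5 in the inhibitor controls. With FPKM as deposited, 10 respiratory chain genes were called higher and 9 lower, and 13 and 7 of the ribosomal genes, and both medians stayed above that of all genes, by 0.24 and 0.28.

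**Figure D4:**
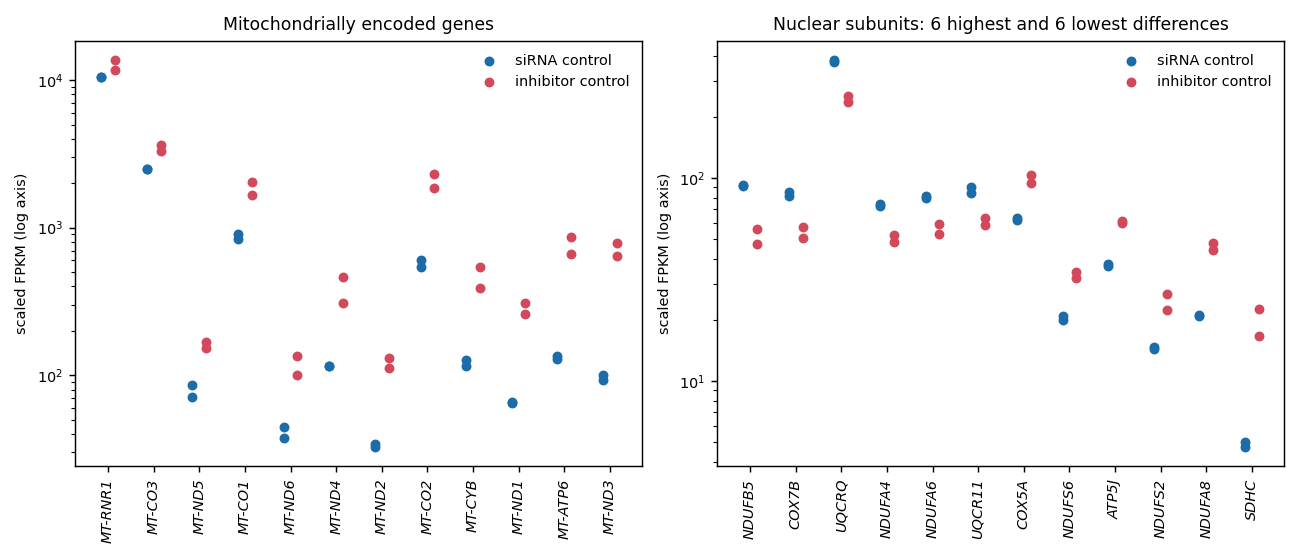
Levels in the control libraries (scaled FPKM, log axis) of the 12 mitochondrially encoded genes and of the 6 nuclear respiratory chain genes with the highest and the 6 with the lowest difference, pseudogenes left out. MT-ND3 stands at 93.2 and 100 in the siRNA controls and at 791 and 642 in the inhibitor controls, while UQCRQ stands at 373 and 381 and at 238 and 253.

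Cytosolic ribosomal protein genes split. Of 82 tested, 40 were called higher and 15 lower, with a median log2 difference of 0.15. The lower members differed by more: 7 of the 15 by at least 1, against 2 of the 40. RPL8 was at 642 and 679 FPKM in the siRNA controls, against 1616 and 1581 in the inhibitor controls (log2 -1.27 ± 0.05, adjusted p = 3.82e-06). RPS21 was at 330 and 302 FPKM in the siRNA controls, against 865 and 853 in the inhibitor controls, and RPS2 and RPL3 differed by -1.06 and -1.40. In fragments implied by the intervals the differences were smaller, at -0.60 for RPL8, -0.88 for RPS21, -0.41 for RPS2 and -0.63 for RPL3. Ribosomal protein genes have many processed copies in the genome, so these levels depend on how the authors' counting shared reads. With FPKM as deposited 4 were called higher and 14 lower.

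Translation factors and tRNA synthetases held calls in both directions with scaled levels. Of 43 translation factors, 14 were higher and 13 lower (0 and 12 with FPKM as deposited). Their median of 0.02 was -0.11 with FPKM as deposited and below 0 also without siRNA control replicate 1. EIF3A, the scaffold of initiation factor 3, was at 55.8 and 57.2 FPKM in the siRNA controls, against 122 and 121 in the inhibitor controls. EIF5B, which joins the ribosomal subunits, was at 6.56 and 5.39, against 19.02 and 16.2, and PABPC1, which binds poly(A) tails, at 180 and 187, against 385 and 332. EIF4E, the cap-binding protein, was higher, at 79.3 and 81.6 FPKM in the siRNA controls, against 58.9 and 59.99 in the inhibitor controls (log2 0.43 ± 0.05, adjusted p = 0.000264). Among 20 tRNA synthetases 9 were higher, and RARS had the largest difference, at 93.7 and 87.1 FPKM in the siRNA controls, against 57.8 and 64.5 in the inhibitor controls, while 4 were lower, and AARS had the largest difference, at 19.9 and 21.5, against 41.1 and 34.5. With FPKM as deposited, 2 of the synthetases were called higher and 4 lower. The 30 genes of ribosome biogenesis and the MYC network had 7 higher and 10 lower (0 and 10 with FPKM as deposited). MYC itself was at 133 and 136 FPKM in the siRNA controls, against 139 and 133 in the inhibitor controls, and was not called (log2 -0.01, adjusted p = 0.855). Beside NCL, the snoRNP proteins FBL and GAR1 differed by -1.47 and -1.45 and NOLC1 by -1.04, whereas NPM1, the other abundant nucleolar protein, was at 2496 and 2444 FPKM, against 1845 and 1894 (log2 0.40 ± 0.05, adjusted p = 0.000394).

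Proteins that bind and splice RNA were mostly lower in the siRNA controls. Of 26 hnRNP genes other than pseudogenes, 20 were called lower and 1 higher, with a median log2 difference of -0.55. The list also matched 7 pseudogenes, and with them the count was 21 lower and 3 higher of 33. HNRNPM was at 32.1 and 30.5 FPKM in the siRNA controls, against 133 and 120 in the inhibitor controls (log2 -1.98 ± 0.08, adjusted p = 2.56e-06). HNRNPA1, which with HNRNPA2B1 represses splice sites, was at 212 and 230 FPKM in the siRNA controls, against 501 and 476 in the inhibitor controls. PCBP1, which binds poly(C), was at 4.93 and 5.18, against 21.1 and 26.4. The exception was HNRNPC, at 554 and 535 FPKM in the siRNA controls, against 462 and 478 in the inhibitor controls (log2 0.21, adjusted p = 0.00574), a call that failed without inhibitor control replicate 1 (adjusted p = 0.0506).

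SR proteins, which promote exon recognition, and their kinases had 13 lower and 2 higher of 21, with a median of -0.36. SRSF5 was at 70.6 and 70.8 FPKM in the siRNA controls, against 94.5 and 102 in the inhibitor controls (log2 -0.47 ± 0.05, adjusted p = 0.000305), and SRRM1, a coactivator of splicing, stood at 18.8 and 18.1, against 40.2 and 33.7. The higher members were SRSF2 and CLK1, whose calls were lost without siRNA control replicate 1 (adjusted p = 0.0504 for SRSF2 and 0.0565 for CLK1). The call of SRSF2 was lost also without inhibitor control replicate 2 (adjusted p = 0.068), and that of CLK1 without inhibitor control replicate 1 (adjusted p = 0.0683). The core particle was divided, with 15 lower and 12 higher of 38 genes (16 and 3 with FPKM as deposited). The lower members included PRPF8 of the U5 particle and SF3B2 and SNRPA1 of the U2 particle. PRPF8 was at 22.0 and 23.1 FPKM in the siRNA controls, against 59.8 and 52.3 in the inhibitor controls, SF3B2 at 67.3 and 68.6, against 106 and 105, and SNRPA1 at 7.74 and 9.31, against 44.0 and 29.8. Higher members included the ring proteins LSM4, at 220 and 227 FPKM in the siRNA controls, against 159 and 157 in the inhibitor controls, and SNRPG (log2 0.41).

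**Figure D5:**
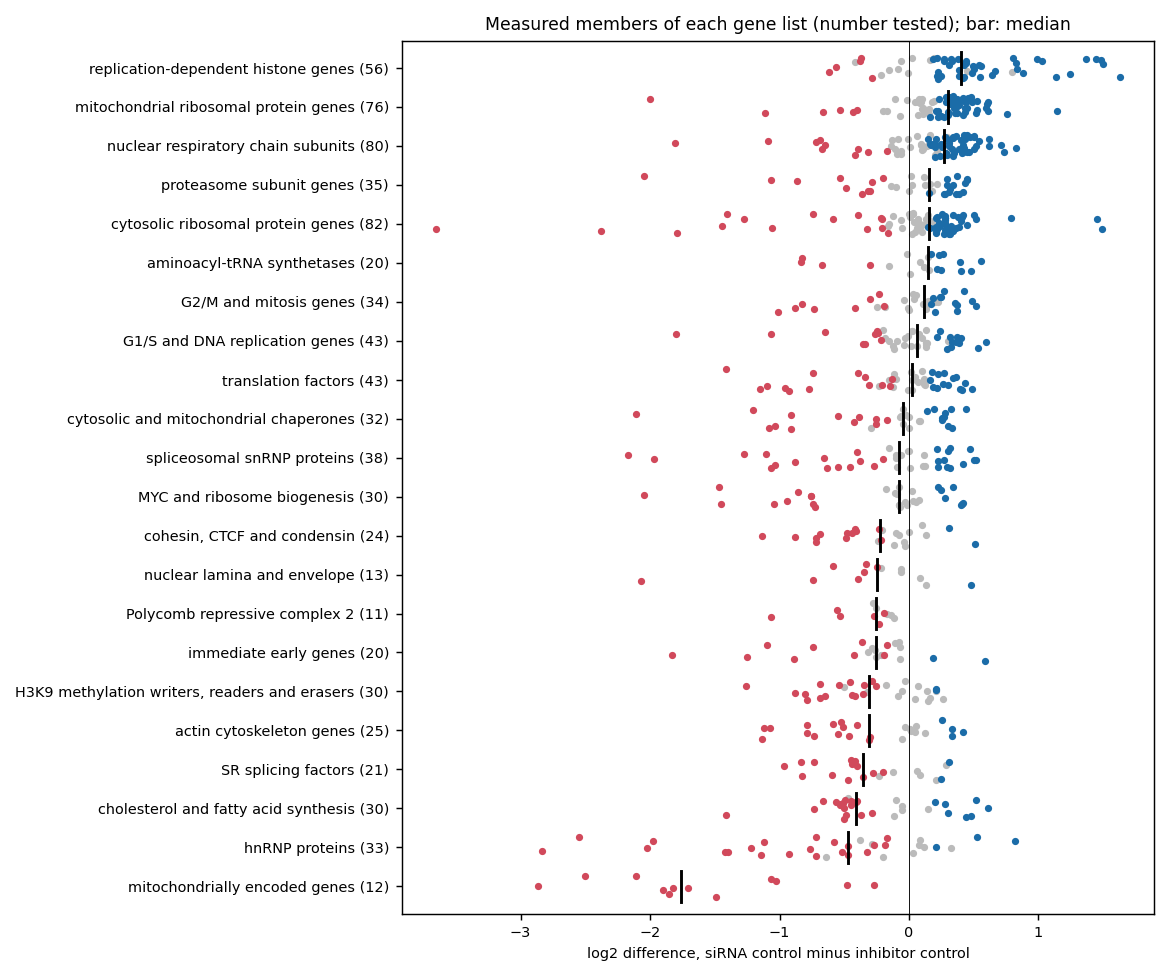
Log2 difference of siRNA control minus inhibitor control for the tested members of 22 gene lists (points, with calls coloured: blue higher, red lower, grey not called) and the list median (bar). The medians run through 0.41 for histone genes to -1.77 for mitochondrially encoded genes, and most lists hold calls in both directions.

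Of 10 nuclear and cancer-related long noncoding RNAs, 3 were called higher and 3 lower in the siRNA controls. MALAT1, which gathers in splicing speckles, was at 63.2 and 68.7 FPKM in the siRNA controls, against 230 and 189 in the inhibitor controls (log2 -1.65 ± 0.14, adjusted p = 6.7e-05). NEAT1, the core of paraspeckles, was at 3.69 and 4.18, against 15.3 and 12.6 (log2 -1.59 ± 0.21), and TUG1 was at 12.7 and 13.1, against 20.9 and 21.3. Of 17 host genes of small nucleolar RNAs, 5 were higher and 2 lower (2 and 2 with FPKM as deposited). GAS5 was at 413 and 401 FPKM in the siRNA controls, against 287 and 285 in the inhibitor controls (log2 0.51 ± 0.05, adjusted p = 9.65e-05), and ZFAS1 at 129 and 123, against 87.0 and 86.8. SNHG7 was lower, at 1585 and 1147 FPKM in the siRNA controls, against 3007 and 3505 in the inhibitor controls, though the fragments implied by its intervals differed by only -0.34. SCARNA2, a Cajal body RNA, was at 758 and 772 FPKM, against 393 and 364, opposite to SCARNA9.

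Genes of histone H3 lysine 9 methylation, the system the study targeted, were lower more often than higher. Of 30 tested, 15 were called lower and 2 higher in the siRNA controls, with a median log2 difference of -0.31. The HP1 proteins, which read the mark, were uneven: CBX1 was at 52.5 and 49.1 FPKM in the siRNA controls, against 82.7 and 82.2 in the inhibitor controls (log2 -0.69 ± 0.05, adjusted p = 4.11e-05), CBX5 at 9.96 and 9.70, against 20.8 and 17.3, and CBX3 was not called. MPHOSPH8, a reader that works with the HUSH silencing complex, was at 5.19 and 4.75 FPKM in the siRNA controls, against 14.6 and 12 in the inhibitor controls (log2 -1.26 ± 0.13). TRIM28, which recruits silencing to zinc finger targets, was at 361 and 358, against 458 and 463. The eraser KDM3A was lower (log2 -0.69). The eraser KDM1A is 1 of the 2 called higher, but its quantification was marked as not OK in 3 runs in the deposited files and its call was lost without inhibitor control replicate 1 (adjusted p = 0.0611), so its level is uncertain. The writers SETDB1, SUV39H1 and SUV39H2 were not called: SETDB1 was at 19.4 and 20.8 FPKM in the siRNA controls, against 18.6 and 19.8 in the inhibitor controls, SUV39H1 at 6.42 and 6.92, against 6.77 and 6.11, and SUV39H2 at 28.5 and 25.2, against 23.9 and 23.7.

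Other chromatin regulators leaned the same way. In Polycomb repressive complex 2, which methylates lysine 27 of histone H3, 6 of 11 genes were lower and 0 higher by limma (median -0.26). Its catalytic subunit EZH2 was at 17.3 and 18.6 FPKM in the siRNA controls, against 26.3 and 27.4 in the inhibitor controls (log2 -0.55 ± 0.09, adjusted p = 0.00184). AEBP2, a cofactor, differed by -1.07, and 2 loci that overlap it, EEF1A1P4 and RP11-841C19.3, were higher. Of 24 genes for cohesin, CTCF and condensin, which fold chromosomes, 12 were lower and 2 higher (median -0.22). SMC1A was at 17.9 and 19.6 FPKM in the siRNA controls, against 42.0 and 42.6 in the inhibitor controls (log2 -1.13 ± 0.11, adjusted p = 0.000165), SMC3 at 19.7 and 19.2, against 36.7 and 36.4, and CTCF at 14.5 and 15.5, against 24.85 and 25.9. RAD21, the cleavable subunit of the same ring, was at 134 and 126 FPKM in the siRNA controls, against 131 and 135 in the inhibitor controls, and was not called (log2 -0.03, adjusted p = 0.673). The higher members were ESCO2, which acetylates cohesin (log2 0.51), and NCAPH2 of condensin II (log2 0.31).

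Of 13 lamina genes, 7 were lower and 1 higher. LMNB2 was at 54.5 and 56.9 FPKM in the siRNA controls, against 74.4 and 72.9 in the inhibitor controls, and LMNB1 differed by -0.33, whereas LMNA, at 173 and 182, against 180 and 190, was not called. TMPO, an anchor of chromatin at the lamina, was at 144 and 128 FPKM, against 97.3 and 96.9. Among 14 genes of DNA methylation, 5 were lower and 2 higher. UHRF1, which guides maintenance methylation, was at 20.8 and 22.2 FPKM in the siRNA controls, against 41.0 and 35.6 in the inhibitor controls (log2 -0.80 ± 0.09, adjusted p = 0.000281), and DNMT3A was at 1.22 and 1.22, against 2.85 and 3.16. These DNMT3A levels were imprecise, with 35 and 3 fragments implied in the siRNA controls and 78 and 20 in the inhibitor controls.

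Core histone genes were mostly higher in the siRNA controls. Their RNAs normally end in a stem-loop without a poly(A) tail and are made during DNA replication. Of 56 tested, 40 were called higher and 5 lower, with a median log2 difference of 0.41, and 4 of the members are pseudogenes. HIST3H2A was at 110 and 128 FPKM in the siRNA controls, against 59.2 and 56.2 in the inhibitor controls (log2 1.03 ± 0.09, adjusted p = 6.49e-05). HIST1H2AD was at 431 and 484 FPKM in the siRNA controls, against 285 and 291 in the inhibitor controls, and HIST2H2AC at 571 and 589, against 404 and 416. Among the 5 lower members were the histone H4 genes HIST1H4E, at 112 and 111, against 175 and 170, and HIST1H4H, at 287 and 272, against 407 and 418. SLBP, the protein that binds the stem-loop, was at 90.7 and 85.9 FPKM in the siRNA controls, against 62.4 and 70.9 in the inhibitor controls (log2 0.40 ± 0.07). With FPKM as deposited, 20 histone genes were higher and 6 lower. Of 11 linker and replacement histones, which are made outside of replication as well, 5 were lower and 2 higher, with H3F3A at 22.5 and 26.2, against 42.7 and 34.5, and H2AFV at 65.8 and 60.5, against 84.7 and 92.2.

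With scaled levels, cell cycle genes were not called predominantly in either direction. Of 43 genes for the entry into S phase and DNA replication, 12 were higher and 9 lower (median 0.06), and of 34 for mitosis 12 were higher and 8 lower (median 0.12). With FPKM as deposited the medians were -0.07 and -0.02. The calls were then mostly lower, at 2 higher and 10 lower for the S phase list, and 2 and 7 for mitosis. CDK1, the mitotic kinase, was at 127 and 115 FPKM in the siRNA controls, against 89.9 and 89.7 in the inhibitor controls, and TTK, of the spindle checkpoint, at 44.7 and 42.2, against 29.97 and 30.2. In contrast PLK1 was at 21.7 and 23.9 FPKM, against 41.7 and 44.0, and MKI67, the proliferation marker, at 14.4 and 14.2, against 31.5 and 28.4 (log2 -1.01 ± 0.19, adjusted p = 0.00321). RPA1, which coats single-stranded DNA, was at 10.1 and 13.3 FPKM in the siRNA controls, against 47.1 and 38.7 in the inhibitor controls. RRM2, which makes deoxynucleotides, was at 52.8 and 58.9, against 120 and 121, and MCM6 of the replicative helicase at 14.9 and 13.3, against 30.01 and 31.2.

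Several chaperones that respond to unfolded proteins were lower in the siRNA controls. HSPB1, a small heat shock protein, was at 54.7 and 59.8 FPKM in the siRNA controls, against 139 and 127 in the inhibitor controls (log2 -1.21 ± 0.07, adjusted p = 9.13e-06). HSP90AA1 was at 205 and 196 FPKM in the siRNA controls, against 501 and 358 in the inhibitor controls (log2 -1.08), though the implied fragments differed by -0.28. Its cofactors PTGES3 and CHORDC1 differed by -1.04 and -0.91, and BAG3, which hands clients to autophagy, by -0.92. HSPA5, the main chaperone of the endoplasmic reticulum, was at 14.0 and 14.7 FPKM in the siRNA controls, against 66.9 and 48.6 in the inhibitor controls (log2 -1.92 ± 0.13, adjusted p = 2.85e-05). Subunits of the cytosolic chaperonin were higher: CCT2 was at 370 and 343, against 254 and 272, CCT5 at 564 and 530, against 427 and 445, and TCP1 at 393 and 387, against 329 and 316. Over the lists, 12 of 32 cytosolic and mitochondrial chaperones were lower and 10 higher, and 6 of 23 endoplasmic reticulum genes were lower and 1 higher. These counts were 12 and 0, and 7 and 0, with FPKM as deposited. Of 19 genes of the amino acid response, 7 were higher and 4 lower (3 and 6 with FPKM as deposited). The regulator of this response, ATF4, was at 279 and 276 FPKM in the siRNA controls, against 181 and 198 in the inhibitor controls (log2 0.55 ± 0.05, adjusted p = 0.000139).

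Genes that could report on delivered RNA were described next, since one control accompanies a siRNA. Of 24 genes of RNA sensing and the interferon response, 2 were called higher and 5 lower in the siRNA controls, with a median log2 difference of -0.07. ISG15 was at 52.97 and 47.2 FPKM in the siRNA controls, against 38.4 and 34.0 in the inhibitor controls (log2 0.46 ± 0.08, adjusted p = 0.0018), and IFIT5 at 20.6 and 18.3, against 15.0 and 14.1. IFITM3 was at 56.2 and 60.4 FPKM in the siRNA controls, against 100 and 90.9 in the inhibitor controls, and EIF2AK2, the kinase PKR that binds double-stranded RNA, at 9.08 and 9.71, against 15.9 and 15.7. Of 17 genes of the RNA interference pathway 4 were higher and 6 lower. DROSHA, which cuts primary microRNAs, was at 11.1 and 11.8 FPKM in the siRNA controls, against 18.1 and 17.4 in the inhibitor controls (log2 -0.59 ± 0.08, adjusted p = 0.000468), and AGO1 was at 4.93 and 5.05, against 7.98 and 7.43. DICER1, at 15.9 and 16.2, against 15.3 and 16.8, and AGO2, at 22.8 and 24.4, against 20.6 and 22.1, were not called.

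Signal-induced genes were called lower more often than higher. Of 20 immediate early genes 9 were called lower and 2 higher, with a median of -0.26. KLF6 was at 5.44 and 4.73 FPKM in the siRNA controls, against 20.9 and 20.5 in the inhibitor controls (log2 -1.83 ± 0.14, adjusted p = 4.08e-05). CYR61, a matricellular target of YAP, was at 2.70 and 2.63, against 7.15 and 8.32, and EGR1, a growth factor response gene, at 5.06 and 6.02, against 12.9 and 9.51. JUNB was higher, at 22.9 and 25.5 FPKM in the siRNA controls, against 16.8 and 14.8 in the inhibitor controls. MAP2K1, a kinase of the MAPK cascade, was at 11.6 and 10.3 FPKM in the siRNA controls, against 21.07 and 19.8 in the inhibitor controls. In the Wnt pathway, which is active in colon cancer, 5 of 18 genes were lower and 0 higher by limma. TCF7L2, the nuclear effector, was at 5.56 and 5.18 FPKM in the siRNA controls, against 13.5 and 12.3 in the inhibitor controls, while CTNNB1, at 126 and 128, against 122 and 125, was not called.

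Lipid synthesis genes split by gene and leaned lower. Of 30 tested, 17 were called lower and 7 higher, with a median log2 difference of -0.41. ACACA, which commits acetyl-CoA to fatty acids, was at 20.2 in both siRNA controls, against 29.2 and 31.4 FPKM in the inhibitor controls. PMVK, a kinase of the mevalonate pathway, was low, at 1.27 and 1.48, against 5.54 and 5.10. MSMO1 and CYP51A1, later enzymes of the pathway, were higher, with MSMO1 at 88.4 and 83.5 FPKM in the siRNA controls, against 57.5 and 54.7 in the inhibitor controls (log2 0.61 ± 0.06), and CYP51A1 at 128 and 120, against 88.0 and 89.1. INSIG1, a sterol-responsive gene, was higher by 0.44.

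In glucose metabolism 9 of 30 genes were lower and 6 higher (9 and 0 with FPKM as deposited). LDHA, which makes lactate, was at 193 and 213 FPKM in the siRNA controls, against 397 and 337 in the inhibitor controls (log2 -0.85 ± 0.08, adjusted p = 0.000113), HK2 at 4.45 and 4.94, against 10.7 and 11.2, and the glucose carrier SLC2A1 at 26.1 and 29.2, against 44.9 and 41.7. PGK1 was at 400 and 402 FPKM, against 333 and 345, and HIF1A at 49.7 and 51.5, against 37.5 and 39.7. Ferritin chains differed in opposite directions. FTL, the light chain, was at 1833 and 1811 FPKM in the siRNA controls, against 1225 and 1139 in the inhibitor controls (log2 0.63 ± 0.05, adjusted p = 7.78e-05), and FTH1, the heavy chain, at 78.1 and 89.0, against 251 and 232 (log2 -1.52 ± 0.08, adjusted p = 8.15e-06). NQO1, a quinone reductase, was at 177 and 175 FPKM, against 117 and 113, and PGD, of the pentose phosphate pathway, at 37.4 and 42.4, against 95.6 and 75.2. SEPHS2, which makes the selenium donor for selenoproteins, was at 1.08 in both siRNA controls, against 10.1 and 11.01 FPKM in the inhibitor controls (log2 -2.48 ± 0.13, adjusted p = 8.15e-06), and EEFSEC, their elongation factor, at 1.27 and 1.04, against 4.02 and 4.53. The EEFSEC levels rested on 94 and 9 implied fragments in the siRNA controls and on 293 and 84 in the inhibitor controls. Of 19 genes of selenoproteins and their synthesis, 5 were higher and 5 lower (2 and 5 with FPKM as deposited).

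Genes of the actin cytoskeleton were mostly lower in the siRNA controls, with 14 of 25 genes lower and 4 higher and a median of -0.31. ACTG1 was at 1006 and 1105 FPKM in the siRNA controls, against 2452 and 2185 in the inhibitor controls (log2 -1.13 ± 0.08, adjusted p = 3.52e-05), though its implied fragments differed by -0.23. MYH9, the heavy chain of nonmuscle myosin, was at 29.9 and 29.97, against 63.2 and 65.1, and ACTN1, which crosslinks filaments, at 13.0 and 15.3, against 33.5 and 30.4. TMSB10, which binds actin monomers, was higher, at 2099 and 2023 FPKM in the siRNA controls, against 1546 and 1546 in the inhibitor controls, as was the myosin light chain MYL6 (log2 0.26). The proteasome had 15 of 35 genes higher and 10 lower (2 and 10 with FPKM as deposited). PSMD2, of the cap, was at 72.7 and 79.9 FPKM in the siRNA controls, against 164 and 157 in the inhibitor controls, and PSMB1, of the core, was at 247 and 244, against 180 and 183. Other cap subunits were higher, with PSMC2 at 109.8 and 104.9 FPKM in the siRNA controls, against 76.5 and 80.6 in the inhibitor controls, and PSMD6 at 70.4 and 70.3, against 50.6 and 52.2.

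Of 315 zinc finger genes, many of which encode repressors that recruit H3K9 methylation, 54 were called higher and 26 lower (17.1% and 8.3%, against 19.2% and 19% of all genes). Of 144 antisense long noncoding RNAs, 18 were higher and 7 lower, and of 53 intergenic ones 8 were higher and 3 lower. These directions depended on the scaling. Zinc finger genes had 9 higher and 34 lower with FPKM as deposited, antisense RNAs 5 and 8, and intergenic ones 4 and 5. Without knowledge of strand in the counting, an antisense RNA and its partner cannot be told apart. Of 34 genes of autophagy and the lysosome, 13 were lower and 6 higher.

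The deposited intervals offered a second reading of the same libraries. If each interval reflects counting alone, it implies a number of fragments per gene. For 159 of the larger decreases with at least 50 implied fragments in each control library, the median log2 difference was -1.31 in FPKM and -1.26 in implied fragments, relative to all genes. For 21 of the larger increases it was 1.32 and 1.37. The sign was the same for 1689 of 1727 called decreases and 1938 of 2015 called increases with enough fragments. Over all 8065 genes with enough fragments it was the same for 7077 (87.7%). Both readings come from the same deposited values, so a shared sign is no separate support for the calls. Some abundant genes differed in size between the readings, among them RNA28S5 (6.59 in FPKM and 1.84 in implied fragments) and HNRNPA2B1 (-2.87 and -1.61). The implied difference was also smaller by over 1.5 times for SCARNA2, CBX1, TMPO, HIST1H4H, ATP5F1, CYC1, EIF3A, NOLC1, NPM1, CLK1, SNRPG, PTGES3, CHORDC1, CCT2, CCT5, ATF4, EIF2AK2, CYP51A1, LDHA, HIF1A, RRM2, CDK1, TMSB10, PSMB1, KRT8, KRT18 and FTSJ3. The same held for RARS, HNRNPC, TCP1, PGK1, MYL6, PSMC2 and KRT19. For LMNB2 the implied difference was 0.07, against -0.40 in FPKM. The intervals of such genes may hold more than counting error, so the implied values are a description and carry no test.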

How the data were processed

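Cufflinks FPKM per gene and run were deposited by the authors, per the file headers, from total RNA of HCT116 cells. The submitters' processing notes name STAR 2.3.0e, SAMtools 0.1.19 and the build hg19. The Cufflinks version, its annotation and whether counting used strand are not stated. Rows of a gene were summed, the 2 runs of a library averaged, and libraries scaled by median-of-ratios factors. Loci shorter than 300 bases, genes averaging under 1 FPKM over the 8 libraries, and MT-RNR2 were left out. limma 3.58.1 in R 4.3.3 was fitted to log2(FPKM + 1) of all 4 groups, with a mean-variance trend. Fold changes on that scale understate the change of low genes. Calls had a Benjamini-Hochberg adjusted p below 0.05 over all 12846 genes, with 4 residual degrees of freedom. The fit was also run on simulated data with known changes and independent normal noise of the fitted size. Such data cannot show how the calls fare where the libraries of a group are technical. Read totals are unknown; fragments implied by the intervals set how precise a level is. Named genes were the 15 largest called changes in each direction averaging at least 10 FPKM, EHMT2, EHMT1, RNA28S5, MALAT1, and list members taken by smallest p, by a call against the list's main direction or by role; most cell type markers are given as counts. The members and lists were chosen with earlier results of these data known. Alternatives covered the pseudocount, filters, scaling, the model, single runs, and each library left out. A few named genes are not reported here.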

Additional observations from a re-analysis of the deposited data

How the results depend on the processing

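No called gene that is named changed direction under the 16 alternatives. The uncalled differences of MYC, RAD21, SETDB1, SUV39H1, DICER1, AGO2, CTNNB1 and EIF1AD lay near 0 and changed sign under at least 1. CD68, also uncalled, differed by 0.14, and by -0.04 without inhibitor control replicate 2. Over 4021 gene and alternative pairs, 3869 kept their side of the threshold, 148 lost the call and 4 gained it. The 4916 calls numbered 3176 with no filter on low values and 3212 with the first run alone. The 2472 genes higher in the siRNA controls numbered 1500 with no filter, 648 with FPKM as deposited and 1555 with the first run alone. Leaving out 1 library gave 1621 to 1927 of them. Larger increases numbered 209 with a pseudocount of 0.1 and 40 with a mean of at least 5 FPKM, and with 1 library left out they ranged between 60 (siRNA control replicate 2 removed) and 165 (siRNA control replicate 1 removed). Larger decreases numbered 399 with a pseudocount of 0.1. The cause of these shifts was not tested. With the replicate number as a replicate block 4579 genes were called, 2293 higher and 2286 lower. The replicate 1 minus replicate 2 difference of the siRNA controls correlated with that of the inhibitor controls at -0.048 over genes. With 1 such difference per group, this value cannot decide whether same-numbered libraries shared a culture or batch. List medians moved by more than the spread in 137 of 752 cases, 42 of them with FPKM as deposited. Depth limits the genes with few implied fragments most, in siRNA control replicate 2 and inhibitor control replicate 2.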
